A study of Homo sapiens with 12 samples.

Results

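The cadherin genes CDH1, CDH2, CDH3, CDH4, CDH5, CDH6, CDH11, CDH13, CDH16 and CDH17 were followed by RNA-seq in A549 cells, a human lung adenocarcinoma epithelial cell line. They were taken by name, 10 of the 58830 entries of the table of normalized counts, and each was present there. The 12 libraries fell into 4 groups of 3 biological repeats, and every library was from day 5. Wild type A549 cells, and a single derivative whose genotype label is miR22/SNAI1 target site KO (called here the KO line), were each kept untreated or given TGFβ at 10 ng/mL, an inducer of epithelial-mesenchymal transition (EMT). All cells were grown in complete medium with serum. With 1 derivative in the series, effects of the edit and of having derived a line cannot be told apart. Libraries held 84210775 to 111141708 recovered reads. SNAI1 encodes a repressor of CDH1. Its reads are no check of the genotype labels, because a changed target site can leave them as they are. It stood at 400.4 to 576 normalized counts in untreated wild type and 432 to 513 in the untreated KO line, ranges that overlap, and at 768 to 958 and 1214 to 1406 with TGFβ, ranges that do not.

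Cadherins are calcium-dependent adhesion proteins that bind cadherins of neighbouring cells through their extracellular repeats. The classical cadherins hold β-catenin, p120-catenin and α-catenin on their cytoplasmic tails, which ties the junction to actin. In EMT, epithelial cells are known to lose E-cadherin (CDH1) and gain N-cadherin (CDH2). Among the other members, CDH3 (P-cadherin) and CDH4 (R-cadherin) are also type I classical cadherins. CDH5 (VE-cadherin, known from endothelium), CDH6 (K-cadherin, known from kidney) and CDH11 (OB-cadherin, known from osteoblasts and fibroblasts) are type II. CDH13 (T-cadherin) has no cytoplasmic tail and is held by a lipid anchor. CDH16 (kidney-specific cadherin) and CDH17 (liver-intestine cadherin) have short tails that do not carry the classical catenin-binding region.

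In the GENCODE 29 annotation of GRCh38, 6 of the 10 genes lay on chromosome 16. CDH3 (ENSG00000062038.13, 68636189 to 68722616) and CDH1 (ENSG00000039068.18, 68737225 to 68835548) were neighbours on the same strand, 14608 bases apart. CDH11 (64943753 to 65126112), CDH5 (66366622 to 66404786), CDH16 (66908122 to 66918984) and CDH13 (82626803 to 83800640) lay on the same chromosome. CDH2 (ENSG00000170558.8) lay on chromosome 18 (27950966 to 28177446), CDH4 (ENSG00000179242.15) on chromosome 20 (61252426 to 61940617) and CDH6 on chromosome 5 (31193750 to 31329146). The sources used here do not say whether counting used strand. The only other genes inside CDH1 with a value in the table were small: the pseudogene FTLP14 had 15.1 to 79.8 normalized counts and RNA5SP429 at most 1.07, and the antisense gene AC099314.1 was listed at 0. Antisense genes also overlap CDH2, CDH3, CDH4, CDH6 and CDH13 in the annotation and were not analysed here.

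CDH2 and CDH4, type I cadherins that rose together with TGFβ (below 30 normalized counts in each untreated library and above 130 in each treated one), were the members with promoters in the RefSeq table (build GRCh38.p14), which lists 4 starts for them. The 250 bases before a start are shown for the 3 starts whose window touched no exon of the gene in GENCODE 29. All 3 lie inside their gene. CDH4 runs from 61252426 to 61940617 on the plus strand, and neither of its listed starts is at the outer end. Capitals mark matches, on either strand, to the E-box CANNTG, the general site of basic helix-loop-helix and SNAI or ZEB factors, and to CAGAC, a short SMAD-binding motif.
CDH2 inner start, chr18:28036642-28036891, minus strand: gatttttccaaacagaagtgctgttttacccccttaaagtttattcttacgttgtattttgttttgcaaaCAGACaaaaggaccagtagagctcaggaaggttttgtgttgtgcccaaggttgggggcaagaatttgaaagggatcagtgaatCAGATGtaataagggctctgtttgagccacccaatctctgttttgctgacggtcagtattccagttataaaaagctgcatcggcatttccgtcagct
CDH4 start, chr20:61499171-61499420, plus strand: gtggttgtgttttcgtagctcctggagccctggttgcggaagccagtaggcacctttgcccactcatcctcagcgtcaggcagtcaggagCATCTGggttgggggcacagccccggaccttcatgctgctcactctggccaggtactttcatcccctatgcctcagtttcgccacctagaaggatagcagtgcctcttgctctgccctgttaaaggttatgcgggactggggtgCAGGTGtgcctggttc
CDH4 start, chr20:61599511-61599760, plus strand: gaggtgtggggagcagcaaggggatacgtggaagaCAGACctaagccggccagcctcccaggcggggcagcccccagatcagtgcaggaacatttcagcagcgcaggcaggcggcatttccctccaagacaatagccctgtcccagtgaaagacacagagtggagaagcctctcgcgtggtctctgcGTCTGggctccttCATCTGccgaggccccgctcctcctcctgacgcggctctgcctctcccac

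The CDH2 inner start had 1 CANNTG match (CAGATG) and 1 CAGAC match. The CDH4 start at the lower coordinate, also inside its gene, had 2 CANNTG and 0 CAGAC matches. Of the CANNTG matches 1 was CAGGTG, the form preferred by SNAI and ZEB factors, 16 to 11 bases before that start. The other CDH4 start had 1 CANNTG and 2 CAGAC matches. The outer CDH2 start (chr18:28177131-28177380, minus strand), whose window is not printed, had 0 CANNTG and 2 CAGAC matches and a GC content of 66%, against a median of 58% over the 35116 windows of the table. Across those windows, searched on both strands, 61.8% held CANNTG, 17.5% held CAGGTG (each CAGGTG is also a CANNTG) and 38% held CAGAC. A match is a description of letters, and the counts per gene do not show which start was used.

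Per kilobase of merged exons, the epithelial member CDH1 was the most abundant of the 10 genes in every group. Its normalized counts in replicates 1 to 3 were 26688, 30328 and 28606 in untreated wild type and 9000.1, 9375 and 9325 with TGFβ. The KO line had 35810.3, 32369 and 34093 untreated and 10647, 10227 and 9981 with TGFβ. Every treated library lay below every untreated one, and within each treatment the KO line lay above wild type without overlap. CDH1 fell with TGFβ by 3.09-fold in wild type (log2 fold change -1.63 ± 0.06 (SE), limma adjusted p = 9.33e-13) and 3.31-fold in the KO line (-1.73 ± 0.06, limma adjusted p = 3.94e-13). The responses did not differ past the threshold (difference -0.10, 95% interval -0.28 to 0.08).

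CDH17, the liver-intestine cadherin (chromosome 8, 94127171 to 94217303), moved the same way as CDH1 with TGFβ. Per kilobase it was second to CDH1 among the 10 genes in untreated cells. It had 4191, 5056 and 4382 normalized counts in untreated wild type and 1892, 1799.8 and 1874 with TGFβ. Values in the KO line were 8722, 8128 and 8336 untreated and 2676, 2168 and 2580.1 with TGFβ. The untreated KO line stood above all 9 other libraries. CDH17 fell 2.44-fold in wild type (-1.29 ± 0.08, limma adjusted p = 1.06e-09) and 3.40-fold in the KO line (-1.77 ± 0.08, limma adjusted p = 1.70e-11). The fall was thus steeper in the derivative (interaction -0.48 ± 0.12, limma adjusted p = 0.0101).

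CDH16, the kidney-specific cadherin, was a low gene that nearly disappeared with TGFβ. Its normalized counts were 48.8, 53.6 and 53.7 in untreated wild type and 5.50, 0 and 0 with TGFβ, or 164 against 5 reads in all. For the KO line they were 66.03, 54.7 and 73.6 untreated and 10.4, 2.15 and 4.55 with TGFβ, or 205 against 16 reads. The treated and untreated libraries did not overlap in either line. CDH16 fell in wild type (-4.83 ± 0.64, limma adjusted p = 6.71e-06) and in the KO line (-3.48 ± 0.64, limma adjusted p = 0.000183). With a pseudocount of 10 in place of 1 the falls were -2.42 and -2.28 and still passed.

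Among the members that rose, the mesenchymal marker CDH2 remained rare. Its normalized counts were 9.97, 8.24 and 15.04 in untreated wild type and 138, 211 and 150.4 with TGFβ. The KO line had 22.7, 28.96 and 19.6 untreated and 402, 382 and 341 with TGFβ. The 4 groups did not overlap, with the KO line above wild type both without and with TGFβ. The rise was 14.02-fold in wild type (3.81 ± 0.26, limma adjusted p = 2.13e-09) and 15.3-fold in the KO line (3.94 ± 0.26, limma adjusted p = 1.22e-09), and the difference of these responses had a 95% interval of -0.65 to 0.91. Compared per kilobase of merged exons, CDH2 stood at 0.0487 ± 0.0160 (SD, n = 3) per 100 of CDH1 in untreated wild type and at 2.25 ± 0.488 with TGFβ. For the KO line the ratio was 0.0875 ± 0.0212 untreated and 4.55 ± 0.244. The libraries of the 4 groups did not overlap in this ratio, which is given as a description with no test.

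**Figure D1:**
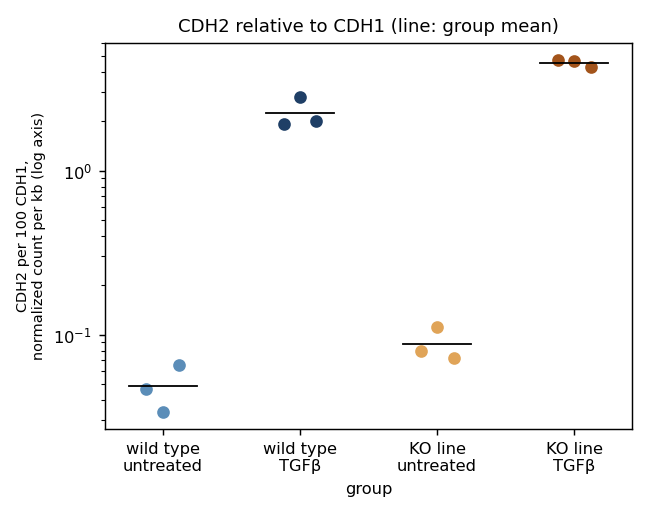
CDH2 per 100 of CDH1, both as normalized count per kilobase (log axis), for each library (points) and group mean (line). Treated libraries sit between 1.92 and 4.71 and untreated ones between 0.0339 and 0.112.

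CDH4 and CDH6 also rose from low levels. CDH4, the R-cadherin gene, had 7.98, 15.7 and 6.45 normalized counts in untreated wild type and 658, 707 and 786 with TGFβ. Values in the KO line were 29.9, 22.5 and 18.8 untreated and 980.3, 746 and 1009 with TGFβ. The untreated groups did not overlap, whereas the treated groups did. The log2 fold change of CDH4 was 6.11 ± 0.26 in wild type (limma adjusted p = 7.10e-12), larger in size than that of 99.5% of tested genes, and 5.22 ± 0.26 in the KO line (limma adjusted p = 4.77e-11). The difference of the responses did not pass (-0.89 ± 0.37, limma adjusted p = 0.119), but it did without replicate 2 of untreated wild type (-1.24, limma adjusted p = 0.0110).

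CDH6, the K-cadherin gene, had 32.9, 32.1 and 34.4 normalized counts in untreated wild type and 1018, 952 and 1031 with TGFβ. The KO line had 35.1, 30.0 and 38.4 untreated and 1214, 1285 and 1183 with TGFβ. The untreated lines overlapped, and the treated KO line lay above treated wild type in each library. CDH6 rose 29.3-fold in wild type (4.87 ± 0.13, limma adjusted p = 2.49e-14) and 34.7-fold in the KO line (5.12 ± 0.13, limma adjusted p = 1.23e-14).

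CDH11, the OB-cadherin gene, reached the highest level per kilobase among the members that rose. Its normalized counts were 933, 887 and 1098 in untreated wild type and 9690.4, 10301 and 10229 with TGFβ. For the KO line they were 671, 751 and 784 untreated and 11689, 11982 and 12565 with TGFβ. The KO line lay below wild type when untreated and above it with TGFβ, each without overlap. The rise was 10.4-fold in wild type (3.38 ± 0.08, limma adjusted p = 4.59e-15) and 16.4-fold in the KO line (4.04 ± 0.08, limma adjusted p = 4.92e-16), and the responses differed (interaction 0.66 ± 0.11, limma adjusted p = 0.000925).

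CDH3, the P-cadherin gene next to CDH1, moved the opposite way from its neighbour. It had 68.8, 40.4 and 55.9 normalized counts in untreated wild type and 157, 132 and 149 with TGFβ. The KO line had 72.2, 72.9 and 71.9 untreated and 175, 123 and 156 with TGFβ. Treated and untreated libraries did not overlap in either line. CDH3 rose 2.68-fold in wild type (1.42 ± 0.21, limma adjusted p = 2.37e-05) and 2.05-fold in the KO line (1.04 ± 0.21, limma adjusted p = 0.000473).

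**Figure D2:**
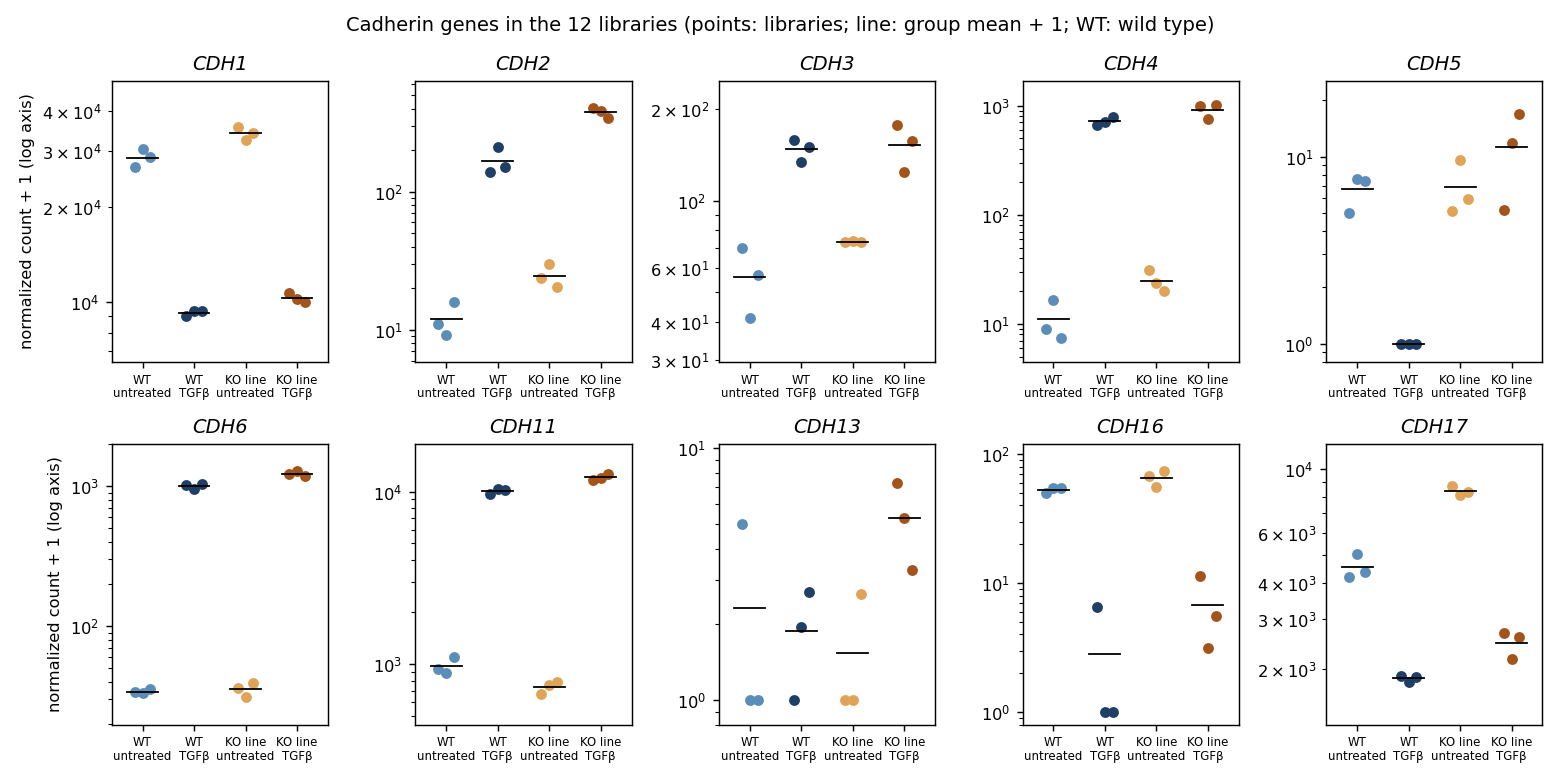
Normalized count + 1 (log axis, scaled separately for each gene) of the 10 cadherin genes in each library (points), with the group mean + 1 (line). CDH1, CDH16 and CDH17 are lower and CDH2, CDH3, CDH4, CDH6 and CDH11 higher in every treated library than in any untreated library of the same line.

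CDH5 and CDH13 did not reach a value of 10 in 3 libraries and were not in the main test. CDH5, the VE-cadherin gene, had 3.99, 6.59 and 6.45 normalized counts in untreated wild type (18 reads in all) and 0 reads in each treated wild type library. A count of 0 allows up to 3 reads over the group, or a mean of 0.966 normalized counts. The observed mean of CDH5 in untreated wild type was 5.87-fold that limit, leaving out the counting error of the 18 reads. In the KO line CDH5 had 4.13, 8.58 and 4.90 normalized counts untreated and 4.18, 10.8 and 15.9 with TGFβ, which overlap. The limit for 0 reads covers counting error only. When no filter was applied, the fall in wild type (limma adjusted p = 0.00173) and the difference between the responses (limma adjusted p = 0.0244) passed for CDH5. CDH13, the T-cadherin gene, had 2 to 4 reads in all in each of untreated wild type, treated wild type and the untreated KO line, and 12 in the treated KO line (2.28 to 6.26 normalized counts). With no filter its rise in the KO line had a limma adjusted p of 0.0433.

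In wild type, of the 10 members 5 rose, 3 fell and 2 were not tested with TGFβ, against 61.7% of all 20456 tested genes called in either direction (30.8% higher and 30.9% lower). The KO line gave the same counts, against 62.8% (32.1% higher and 30.7% lower). Treated and untreated libraries did not overlap for 9 of 10 members in wild type and 9 of 10 in the KO line, against 64.2% and 69.2% of all tested genes. The 9 include CDH5 in wild type and CDH13 in the KO line, which were not tested, whereas these shares cover tested genes only. Each of the 8 tested members changed at least 2-fold in both lines, which 25% of all tested genes did in wild type and 26.3% in the KO line. The median size of the log2 fold change over the 8 tested members was 3.59 in wild type and 3.71 in the KO line, beside 0.55 and 0.57 over all tested genes. The members were chosen with earlier results of these data known, so these contrasts with all genes are descriptions.

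**Figure D3:**
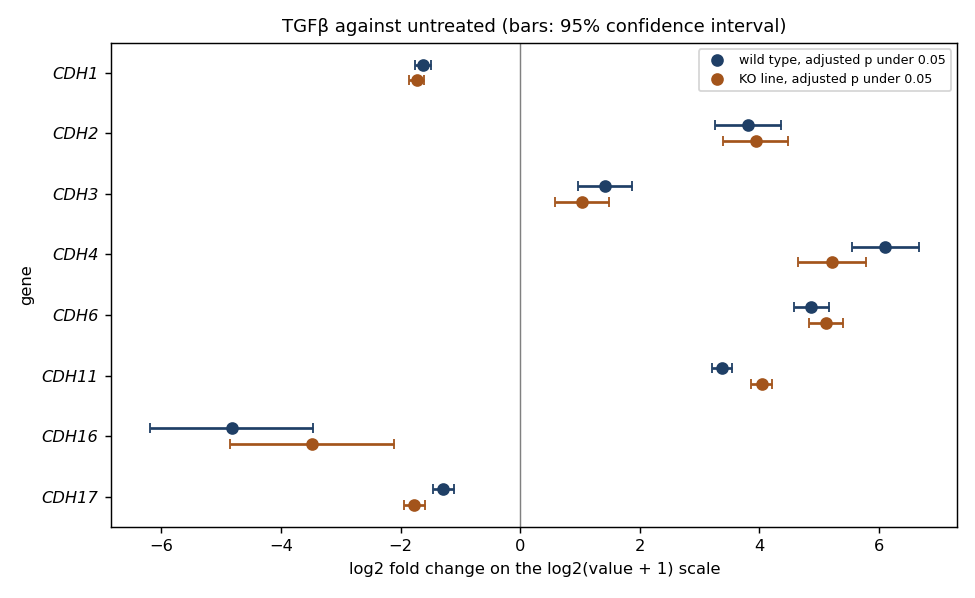
Log2 fold change with TGFβ against untreated, on the log2(value + 1) scale, for the 8 tested cadherin genes in wild type and the KO line (points), with 95% confidence intervals (bars). CDH4 has the highest value in both lines (6.11 and 5.22) and CDH16 the lowest (-4.83 and -3.48).

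Levels were compared between genes as normalized count per kilobase of merged exons. In untreated wild type CDH1 stood at 4620 ± 295 (SD, n = 3), CDH17 at 1165 ± 117 and CDH11 at 72.7 ± 8.28 per kilobase. CDH16 (14.2 ± 0.756) and CDH3 (8.82 ± 2.28) followed, and their library ranges did not overlap those of their neighbours in this order. CDH6, CDH2, CDH4 and CDH5 stood at 2.68, 2.24, 1.36 and 0.933, each overlapping the next, and CDH13 was last at 0.119. In treated wild type CDH11 (753 ± 24.9) stood above CDH17 (476 ± 12.5), and CDH4 (97.5 ± 8.75), CDH6 (80.8 ± 3.42), CDH2 (33.7 ± 7.85) and CDH3 (23.4 ± 2.03) followed without overlap. The treated KO line had the same order of these genes, with CDH4 (124 ± 19.6) and CDH6 (99.1 ± 4.20) overlapping.

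The make-up of the summed level of these 10 genes changed with TGFβ. Other cadherin genes are not in this sum or in the order above, and some were not lower per length. In untreated wild type CDH24 averaged 732 normalized counts over 3748 bases of merged exons, and CDH11 averaged 973 over 13381. CDH1 made up 78.5% ± 0.512 of the summed level per kilobase of the 10 genes in untreated wild type and 50.5% ± 0.275 with TGFβ. In the KO line its share was 71.0% ± 0.373 untreated and 47.2% ± 1.51 with TGFβ. CDH11 took 1.24% ± 0.175 of the sum untreated and 25.4% ± 0.376 with TGFβ in wild type. For the KO line these shares were 0.709% ± 0.0802 and 25.6% ± 1.32. CDH2, the usual partner of CDH1 in descriptions of EMT, reached 1.14% ± 0.253 and 2.15% ± 0.178 with TGFβ. CDH17 made up 19.8% ± 0.736 of untreated wild type and 27.7% ± 0.318 of the untreated KO line. The summed level per kilobase itself was 5888 ± 403 untreated and 2959 ± 58.1 after TGFβ for wild type, and 7767 ± 353 and 3529 ± 109 in the KO line. These shares and sums are descriptions with no test.

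**Figure D4:**
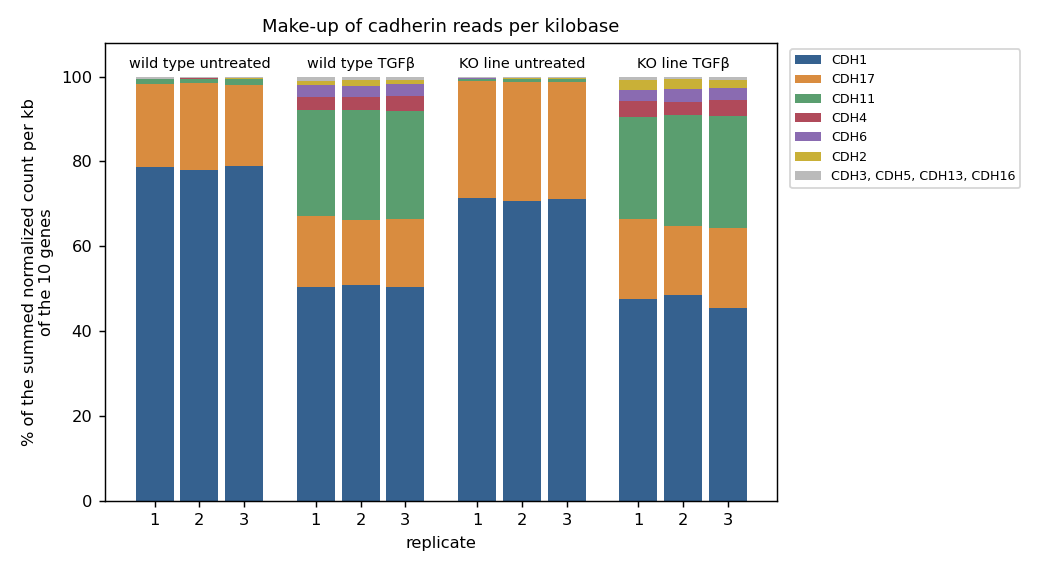
Share (%) of each gene in the summed normalized count per kilobase of the 10 cadherin genes, for each library (bars, by replicate). CDH3, CDH5, CDH13 and CDH16 are drawn as 1 class. CDH1 takes 77.9% to 78.9% of untreated wild type and 50.3% to 50.8% after TGFβ, when CDH11 takes 25.04% to 25.8% (24.1% to 26.5% in the KO line).

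The KO line was then compared with wild type. Untreated, CDH1, CDH2, CDH4 and CDH17 were higher and CDH11 was lower in the KO line. Thus 5 of the 8 tested members were called, against 31.8% of all tested genes (14.3% higher and 17.5% lower). CDH17 was 1.85-fold higher (0.89 ± 0.08, limma adjusted p = 9.47e-07), CDH2 2.08-fold (1.06 ± 0.26, limma adjusted p = 0.00526), CDH4 2.35-fold (1.23 ± 0.26, limma adjusted p = 0.00207) and CDH1 1.20-fold (0.26 ± 0.06, limma adjusted p = 0.00370). With a pseudocount of 10 the CDH2 and CDH4 differences were 0.68 and 0.77 and still passed. CDH11 was 1.32-fold lower (-0.40 ± 0.08, limma adjusted p = 0.00122). CDH3 (95% interval -0.03 to 0.88), CDH6 (-0.23 to 0.34) and CDH16 (-1.07 to 1.67) did not pass. The epithelial CDH1 and CDH17 and the mesenchymal CDH2 were thus higher in the same line. In 7 of the 10 members the untreated lines did not overlap, against 48.8% of all tested genes.

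With TGFβ, 3 of the 8 tested members were called, each higher in the KO line, against 11.7% of all tested genes (7.38% higher and 4.32% lower). The lines did not overlap with TGFβ for 7 of 10 members, against 26.6% of all tested genes. The 7 include CDH5 and CDH13, which were not tested, whereas that share covers tested genes only. CDH2 was 2.28-fold higher (1.19 ± 0.26, limma adjusted p = 0.00694) and CDH17 1.33-fold (0.41 ± 0.08, limma adjusted p = 0.00427). CDH11 was 1.20-fold higher (0.26 ± 0.08, limma adjusted p = 0.0451). The CDH11 call was lost with no filter (limma adjusted p = 0.0686), TMM factors (0.0722) or equal totals (0.0798). It was also lost on leaving out any library of the treated KO line, wild type replicate 1 (untreated or treated), treated wild type replicate 2, or untreated KO replicate 2, (limma adjusted p = 0.0533 to 0.168).

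CDH1 had a difference of 0.16 with TGFβ (95% interval 0.03 to 0.28, limma adjusted p = 0.109). CDH6 stood at 0.29 (limma adjusted p = 0.178) and passed on recovered reads with edgeR (adjusted p = 0.0374) and DESeq2 (adjusted p = 0.0137). CDH16 stood at 1.65 (limma adjusted p = 0.115) and passed without replicate 1 of treated wild type, the only library of that group with CDH16 reads (2.55, limma adjusted p = 0.00433). Its interaction, 1.35 ± 0.91, also passed without that library (2.25, limma adjusted p = 0.0337). Treated wild type then held only values of 0 for CDH16, so both passes rest on removing its only reads. CDH3 (95% interval -0.41 to 0.49) and CDH4 (-0.22 to 0.90) did not pass. CDH11 and CDH17 were the 2 of the 8 tested members whose response to TGFβ differed between the lines. The share over all tested genes was 16.6% (10.6% higher and 6.02% lower).

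**Figure D5:**
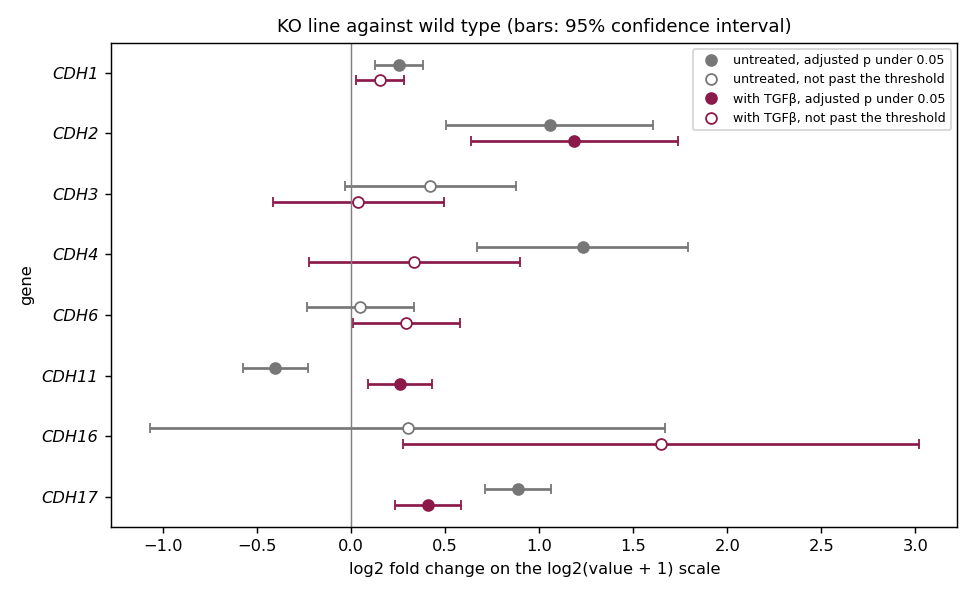
Log2 fold change of the KO line against wild type, on the log2(value + 1) scale, untreated (grey) and with TGFβ (red), with 95% confidence intervals (bars) and open points for values that did not pass. CDH11 lies below 0 untreated (-0.40) and above 0 with TGFβ (0.26).

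Genes with profiles closest to CDH1 and CDH2 were ranked by the root-mean-square difference of centred log2 values over the 12 libraries, among 13590 genes with a mean of at least 100. For CDH1 they were TBC1D31 (0.0983), PYGB, the brain glycogen phosphorylase (0.103), and PHGDH, an enzyme of serine synthesis (0.104), beside a median of 0.856 over the ranked genes. PYGB, for example, averaged 40102 ± 645 and 14650.1 ± 548 (SD, n = 3) in untreated and treated wild type and 48284 ± 1669 and 15811 ± 524 in the KO line. For CDH2 they were STK32A (0.380), PGM2L1 (0.384) and NAV1, a neuron navigator gene (0.396), beside a median of 2.06. NAV1 averaged 289 ± 32.6 and 7080 ± 1377 in wild type and 714 ± 8.76 and 10636 ± 448 in the KO line.

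The partners of cadherins at the junction moved in both directions with TGFβ. Of 14 catenins and actin linkers, 8 rose and 5 fell in wild type and 8 rose and 3 fell in the KO line. For this and the lists that follow, 30.8% of all tested genes were called higher and 30.9% lower in wild type, and 32.1% and 30.7% in the KO line. VCL (vinculin, an actin linker, 1.85 ± 0.08), CTNNB1 (β-catenin, 1.35 ± 0.05) and ARVCF (a p120-type catenin, 1.40 ± 0.18) rose in wild type, while AJUBA (a LIM protein of junctions, -1.54 ± 0.05) fell. CTNNB1 had 24415 to 25060 normalized counts in untreated wild type libraries and 62202 to 64458 in the treated ones, where CDH1 fell. JUP (plakoglobin) fell in wild type (-0.57 ± 0.07) and stood at 0.04 ± 0.07 in the KO line, an interaction of 0.61 ± 0.10 (limma adjusted p = 0.000472). The median log2 fold change of the 13 tested genes of the list was 0.34 in wild type, beside 0.02 over all tested genes. In the untreated KO line 6 of the 14 were lower, including JUP (-0.48 ± 0.07) and AJUBA (-0.42 ± 0.05), and 1 was higher, against 17.5% and 14.3% of all tested genes.

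The nectins, immunoglobulin-type adhesion proteins that join cadherins at adherens junctions, rose in 4 of 4 members in both lines, where 30.8% and 32.1% of all tested genes rose. They are given here by their older names. In wild type PVRL4 rose most (2.87 ± 0.12), then PVRL1 (0.83 ± 0.08) and PVRL3 (0.73 ± 0.10). PVRL2 rose least and averaged 6926 ± 197 (SD, n = 3) and 8188 ± 923 in untreated and treated wild type. Its call (0.24) was lost without replicate 1 of treated wild type (0.15, limma adjusted p = 0.0549). Of 10 genes of cadherin maturation, shedding and turnover, 4 rose and 5 fell in wild type and 5 rose and 5 fell in the KO line (all tested genes: 30.8% and 30.9%, and 32.1% and 30.7%). FURIN, a protease that removes propeptides including those of cadherins, rose 3.67-fold in wild type (1.87 ± 0.06) and 2.13-fold in the KO line (1.09 ± 0.06), an interaction of -0.79 ± 0.09 (limma adjusted p = 2.81e-05). It was already higher in the untreated KO line (0.99 ± 0.06, limma adjusted p = 1.26e-08). ARF6 and NUMB, which act in cadherin endocytosis, fell in wild type (-0.92 ± 0.06 and -0.84 ± 0.05).

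Other cadherin genes moved in both directions, beside 30.8% of all tested genes higher and 30.9% lower in wild type (32.1% and 30.7% in the KO line). Of 18 further type I, type II and cadherin-related genes, 7 rose, 3 fell and 4 were not tested with TGFβ in wild type, with CDH19 (1.21 ± 0.13), CDH24 (0.97 ± 0.08) and CDH10 (0.78 ± 0.14) among the higher. In the untreated KO line 4 were higher, including CDH19 (1.29 ± 0.13) and CDH10 (1.18 ± 0.14), and 4 were lower (all tested genes: 14.3% and 17.5%). Of 10 atypical cadherins and related genes of the FAT, Dachsous and CELSR families, 6 rose and 1 fell in wild type, FAT4 (-1.38 ± 0.19). FAT3 rose there (2.70 ± 0.29) and was lower in the untreated KO line (-1.18 ± 0.29). Of 11 non-clustered protocadherins, 8 were tested. Of these, 3 rose and 1 fell in wild type and 6 rose and 1 fell in the KO line. PCDH1 rose (2.68 ± 0.09) and PCDH17 fell (-2.43 ± 0.08) in wild type. Of 9 repressors of CDH1, 6 rose and 1 fell with TGFβ in both lines, with TCF3 (1.23 ± 0.07) and SNAI1 (0.83 ± 0.13) higher and TWIST2 (-0.73 ± 0.11) lower in wild type.

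Markers of cell types were read beside these results. KRT8 and KRT18, keratins of simple epithelia, were abundant in every library, and the summed normalized count of 6 epithelial markers was 478081 to 616741. With TGFβ 2 of the 6 rose and 4 fell in both lines. KRT7 and CLDN4, a claudin of tight junctions, rose from means of 50218 and 124 to 105120 and 1053 in wild type. KRT8, KRT18, KRT19 and EPCAM fell, EPCAM from a mean of 2191 to 1215 and KRT19 from 149.8 to 62.7 in wild type, the direction of CDH1. Fibroblast markers (6 genes) summed to 145 to 187 in untreated wild type and 1200.5 to 1399 after TGFβ, and 213 to 281 and 1695 to 2016 in the KO line, in the same direction as CDH2 and CDH11. Of the 5 tested, 5 rose in wild type and 4 in the KO line. LUM (lumican) and PDGFRA made up most of the treated sums, LUM with a mean of 110.4 untreated and 788 treated in wild type and PDGFRA with 9.96 and 408 in the KO line. DCN, a defining fibroblast gene, was at most 18.2 in any library and COL1A2 at most 56.0. Endothelial markers (6 genes) summed to 113 to 154 in untreated wild type and 32.6 to 80.7 after TGFβ, and 136 to 181 and 34.5 to 52.3 in the KO line, where CDH5 had reads in every library. Of the 3 endothelial markers tested, 1 rose and 1 fell in wild type, and 1 rose and 2 fell in the KO line; PECAM1 averaged 104 untreated and 1.76 treated in wild type, and KDR was at 0 in 10 of 12 libraries. The sum over 6 leukocyte markers was 49.6 to 150.2 over all libraries, with CD3E at 0 in 11 of 12. Of the 4 leukocyte markers tested, 2 fell with TGFβ in wild type, and 1 rose and 3 fell in the KO line. CD79A averaged 10.3 untreated and 21.5 treated in wild type, and 6.59 and 30.9 in the KO line. Every library is labelled as A549 cells, wild type or KO, and no label names another cell type. Any part of other cell types in the cadherin results was not tested. In these bulk samples a change in some of the cells and a change in all of them cannot be told apart. The labels give no batch.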

How the data were processed

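RNA-seq of 12 A549 libraries was analysed from 1 table of normalized counts. The authors deposited these values as a signal per gene: reads per gene divided by a size factor for each library. The submitters' processing notes name the build GRCh38.p14 and the tools HISAT2, StringTie, featureCounts and DESeq2. Tool versions and roles, the annotation and the strand setting are not given in those notes. Each column held whole multiples of 1 step, so whole reads were recovered (100% of values whole within 0.01). The step for untreated wild type replicate 1 was 0.997, too near 1 for an automatic check of recovery, and its reads were recovered in the same way.

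A gene was tested (20456 were) where 3 or more libraries reached a value of 10. The test was limma 3.58.1 with a mean-variance trend (R 4.3.3) on log2(value + 1), two-sided, in 1 fit of the 4 group means, with Benjamini-Hochberg adjustment over all tested genes and a threshold of 0.05. On this scale the change of low genes is understated. The number after ± is the standard error of a log2 fold change and otherwise the SD. P-values measure the spread between the biological repeats. No pair of repeats agreed within sampling noise (mean chi-square per gene 10.7 to 114, where sampling noise alone gives 1). edgeR 4.0.16 and DESeq2 1.42.0 were run on recovered reads as alternatives. Other alternatives were the pseudocount, the filter, the scaling, blocking on the replicate number, fitting 2 groups at a time and leaving out each library. The fits were tested on simulated data first. For TGFβ in wild type they recovered 61.2% of planted 1.5-fold changes and 70.1% of 2-fold ones. For the interaction these shares were 35.8% and 62.7%, so a difference that did not pass is not shown to be absent.

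The members and gene lists were chosen with earlier results of these data known. All members are reported. From each other list the rule named up to 4 called genes for TGFβ in wild type and up to 2 for the untreated KO line, by size of change among genes with a mean of at least 100, of which some are given. It also named the 3 genes closest to CDH1 and to CDH2. CDH12, CTNND2, the cell type markers named, and the interactions of listed genes were chosen after their values were seen. The interaction of 1 listed gene is not reported here. Exon lengths and positions came from GENCODE 29, and older gene names (5 matched, looked up after a first run had missed them) and promoters from RefSeq.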

Additional observations from a re-analysis of the deposited data

Results flagged for a closer look

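By the interaction term in limma, the response to TGFβ differed between the lines for 19 of 75 tested genes among the cadherin members and the other lists, against 16.6% of all tested genes. The difference (KO line minus wild type, log2 scale) was positive for 15 and negative for 4. Among all tested genes 10.6% were called positive and 6.02% negative. Of all interaction calls 63.7% were positive, and 51.5% with equal totals. CDH11 rose more in the KO line than in wild type (0.66 on the log2 scale) and CDH17 fell more (-0.48). JUP fell in wild type, with a difference of 0.61. The rises of FURIN (-0.79) and CDH12 (-3.06) were smaller in the KO line, and that of SNAI1 was larger (0.62).

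The CDH12 difference was -0.43 with a pseudocount of 10 and no longer passed (limma adjusted p = 0.284), whereas it was -6.05 with edgeR and -5.49 with DESeq2. CDH12 had no read in untreated wild type. For SNAI1 the difference missed the threshold (0.50 to 0.64) on leaving out any of 6 libraries: wild type untreated 1 or 3, wild type treated 2, KO untreated 3, and KO treated 1 or 3 (replicate numbers).

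Among the other listed genes the difference was 0.47 for CDH24, 0.52 for ADAM10, 0.55 for ARF6, -0.93 for FJX1, 0.53 for PCDH1, 1.41 for PCDH9, 0.48 for PCDH17, 0.40 for PVRL2 and 0.77 for PVRL3, each still called under 21 alternatives. PCDH9 averaged 9104 and 8332 normalized counts in untreated and treated wild type, and 4843 and 11757 in the KO line. The calls for CDH9 (1.55), NUMB (0.23), FAT3 (1.33) and PCDH18 (1.29) were lost under 13 of 20, 15 of 21, 11 of 21 and 8 of 21 alternatives, with no change of sign.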

How the results depend on the processing

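The count of called members did not change with a replicate block (8 in both TGFβ comparisons, 5 untreated, 3 with TGFβ and 2 for the interaction), nor did any member's call. Same-numbered libraries deviated together at most weakly (r from -0.03 to 0.13, over 0.1 in 2 of 18 pairs). Pairs with different numbers ran from -0.15 to 0.15. The numbers were not treated as pairs, although 10 of 18 comparisons of a library with the 3 of another group were closest for its own number. Of the members' values under the alternatives, 991 kept direction and call or stayed within the spread, 4 changed sign, 10 lost a call, 5 gained one, and 12 values of the untested CDH5 and CDH13 moved by more than the spread. The sign changes were in differences that did not pass: the CDH2 interaction (-0.094 without replicate 3 of untreated wild type), CDH3 with TGFβ (-0.03 without replicate 2 of treated wild type and -0.075 without replicate 1 of the treated KO line) and CDH6 untreated (-0.028 without replicate 3 of the untreated KO line). SNAI1 untreated was at 0.085 and 0.05 without replicate 3 of untreated wild type or of the untreated KO line, with -0.18 as its lowest value when 1 library was left out, and JUP with TGFβ in the KO line at -0.034 with equal totals and -0.017 without replicate 2 of the untreated KO line. Leaving out 1 library, the highest values of these were 0.31 (CDH2), 0.18 (CDH3), 0.14 (CDH6), 0.085 (SNAI1) and 0.074 (JUP).

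The genes called between the lines with TGFβ numbered 2394, 1183 when each fit held just its own 2 groups, and 1386 to 3841 without 1 library (3841 without replicate 3 of treated wild type). Of them 63.1% were higher in the KO line, against 52.4% with TMM factors and 48.1% with equal totals, and for the interaction 63.7% against 51.5% with equal totals. Low values limit CDH5, CDH13, CDH16 and the untreated levels of CDH2 and CDH4.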

Other observations

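CDH12, a brain type II cadherin gene, had 0 reads in each untreated wild type library and 113, 119 and 129 normalized counts in the untreated KO line. The observed mean there was 125-fold that of the 3 reads that a count of 0 allows over the group. With TGFβ the wild type libraries held 11.5 to 17.7 and those of the derivative 224 to 243 (limma adjusted p = 6.00e-07 for the line difference). CTNND2, which encodes δ-catenin, a neural catenin of the p120 type, had 7.98 to 12.9 normalized counts in untreated wild type and 93.3 to 116 in the untreated KO line (3.28 ± 0.35 on the log2 scale, limma adjusted p = 3.87e-06). CDH12 (21750673 to 22853622), CDH10 (24487100 to 24644978) and CTNND2 (10971840 to 11904043) lie on chromosome 5 (GRCh38). Of the 20 tested genes from the start of CTNND2 to the end of CDH6 there, 4 were higher and 3 lower in the untreated KO line. Among all tested genes these shares were 14.3% and 17.5%. The 4 include CTNND2, CDH12 and CDH10 themselves, so this count is not separate from them. The median log2 fold change of the 20 was 0.02. CDH12 and CTNND2 were chosen after their values were seen. The pseudogene HSPD1P1 lies inside CDH12 on the other strand, with 124 to 218 normalized counts over the 12 libraries.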
